A study of Mus musculus with 12 samples.

Results

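miR-224 and miR-452 are microRNAs (miRNAs) whose hairpins lie in the same intron of Gabre, the gene of the epsilon subunit of the GABA-A receptor, on the mouse X chromosome. The 2 members described here, mmu-miR-224-5p and mmu-miR-452-5p (mmu for mouse, left off from here on), are the 5p arms of these hairpins, named from the 1281 mature miRNAs of a count table in which 664 had a read. Both 3p arms are in the same table, which makes 4 arms of the host intron in all. The members were selected on the host gene, and on the measured read counts of miR-224-5p, whose ratio of TGFβ to vehicle in these libraries was already known, so every value that sets TGFβ against vehicle is given for them as a description, with no test. The question was whether partners within a host gene change together.

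The libraries come from AKR-2B cells, a line of mouse fibroblasts, grown as colonies in soft agar, a medium in which cells divide without attaching to a surface. Colonies received 25 ng/mL TGFβ for 2, 4 or 8 days, or vehicle for the same 2, 4 or 8 days. Each of these 6 groups has 1 miRNA library and 1 mRNA library, all from this line and all grown in agar, so a difference between TGFβ and vehicle within a day has no replicate check. The miRNA libraries held 178877, 459795 and 1387785 reads with TGFβ at days 2, 4 and 8, and 108716, 232107 and 414943 reads with vehicle.

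A miRNA gene is transcribed as part of a longer RNA, from which the nucleases Drosha and then Dicer cut a hairpin and a short duplex. A strand of that duplex, the 5p or the 3p arm, guides the silencing complex to mRNAs, mainly through its seed, the bases near the 5′ end. Intronic miRNAs are carried by the transcript of their host gene, so neighbours can share a promoter while each hairpin is cut and each mature strand is kept or lost on its own. In mouse ovarian granulosa cells miR-224 has been reported as a miRNA raised by TGFβ1 that acts on Smad4, the Smad shared by the TGFβ and BMP branches of the pathway. miR-452 has been described in mouse neural crest.

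The mature sequences are shown because they set which mRNAs each partner could pair with, and the capitals mark the seed, bases 2 to 8. They are RefSeq sequences on the minus strand of GRCm38.p6, at chrX:72261085-72261105 for miR-224-5p and chrX:72262271-72262292 for miR-452-5p.
miR-224-5p: uAAGUCACuagugguuccguu
miR-452-5p: uGUUUGCAgaggaaacugagac
miR-224-3p: aAAUGGUGcccuagugacuaca
miR-452-3p: uCAGUCUCaucugcaaagaggu
The seeds of the 5p members had the same base at 1 of 7 positions, and the longest run of bases that the 2 mature sequences shared was 3. Each of the 4 seeds was held by 1 of the 1679 mature mouse miRNAs in the RefSeq table, which is the miRNA itself. The partners are thus neighbours by position and not members of a seed family.

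The hairpins are shown with both mature arms in capitals. Mir224 spans 82 bases at chrX:72261031-72261112 and Mir452 spans 85 bases at chrX:72262224-72262308, both on the minus strand of GRCm38.p6.
Mir224: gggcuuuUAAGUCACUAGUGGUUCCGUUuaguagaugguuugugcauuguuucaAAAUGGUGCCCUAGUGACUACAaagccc
Mir452: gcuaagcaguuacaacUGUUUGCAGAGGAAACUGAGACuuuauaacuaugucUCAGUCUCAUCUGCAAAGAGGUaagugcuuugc
Gabre lies at X:72255999-72274803 on the same strand, and its transcript Gabre-201 has 9 exons. Both hairpins are in intron 6, which is 3878 bases long, with 1111 bases between them. In the direction of transcription Mir452 comes first, 136 bases after exon 6, and Mir224 follows it.

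**Figure D1:**
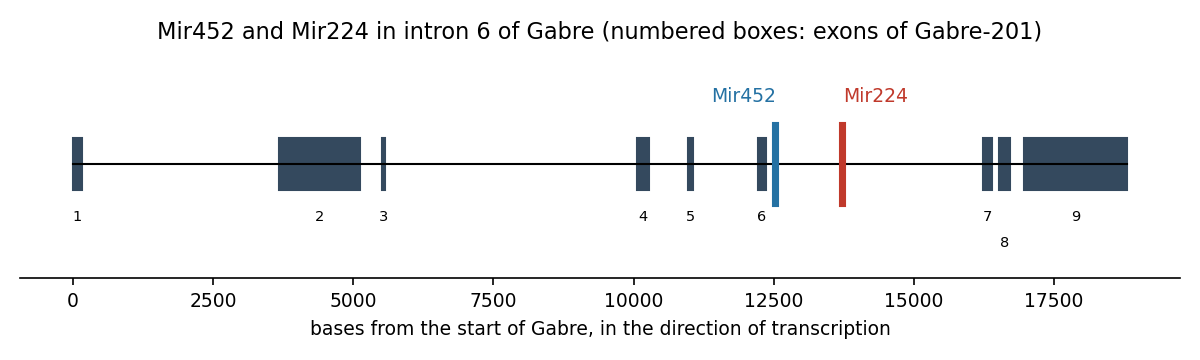
Map of Gabre drawn to scale in the direction of transcription, with distance from the gene start in bases on the horizontal axis, exons of Gabre-201 as boxes and the hairpins of miR-452 and miR-224 as coloured marks. Both hairpins sit in intron 6, with 1111 bases between them.

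miR-224-5p was present in every library and was higher in each TGFβ library than in every vehicle library, whereas miR-452-5p was almost confined to the TGFβ library of day 2. Over the 6 libraries miR-224-5p held 1619 reads and miR-452-5p held 29, of which 27 came from that library. The 3p arms were nearly absent. miR-224-3p had 3 reads, all in the TGFβ library of day 8, which is 0.185% of the 1622 miR-224 reads (exact binomial interval 0.0382 to 0.540%). miR-452-3p had 0 reads in all 6 libraries.

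At days 2, 4 and 8, miR-224-5p had 105, 270 and 1109 reads in the TGFβ libraries, against 18, 54 and 63 reads in the vehicle libraries. Scaled by edgeR's trimmed mean of M values (TMM) to CPM (counts scaled to a fixed library size), its level with TGFβ was 620 CPM at day 2, 700.1 CPM at day 4 and 921 CPM at day 8. With vehicle it was 146, 199.6 and 139 CPM at the same days. The lowest TGFβ level was therefore above the highest vehicle level, and the groups did not overlap. Among 373 miRNAs averaging 10 CPM or more over the 6 libraries, 12.3% had all 3 TGFβ libraries above all 3 vehicle libraries and 8.31% had them all below. Exact binomial intervals at 95% ran from 507 to 750.3 CPM, 619 to 789 CPM and 867 to 976 CPM with TGFβ, and from 86.4 to 230.4 CPM, 149.9 to 260.4 CPM and 106 to 177 CPM with vehicle. In the order of levels, the TGFβ libraries of days 2 and 4 had overlapping intervals, as did the vehicle libraries of all 3 days, and the TGFβ library of day 8 stood above the other TGFβ libraries. Like all other intervals given here, these cover counting error only. The reads carry no molecular identifiers and so are not independent molecules, and each group is 1 library.

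Among the miRNAs detected in a library, miR-224-5p ranked 94 of 455, 100 of 509 and 87 of 581 by reads in the TGFβ libraries, and 170 of 424, 144 of 488 and 167 of 501 in the vehicle libraries. It thus ranked further up in each TGFβ library than in the vehicle libraries. In the authors' deposited RPM table, where reads are scaled to library totals, it stood at 587.04, 587.23 and 799.13 with TGFβ, and at 165.59, 232.67 and 151.83 with vehicle.

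miR-452-5p had 27, 0 and 2 reads with TGFβ at days 2, 4 and 8, and 0 reads with vehicle at each day. The 27 reads correspond to 159 CPM (105 to 232) and placed it 162 of 455 detected miRNAs in that library. The 2 reads at day 8 correspond to 1.66 CPM (0.201 to 6.00) and placed it 479 of 581. Where no read was seen, a count of 3, the limit that 0 reads allows, corresponds to 7.78 CPM in the TGFβ library of day 4 and to 24.3, 11.1 and 6.60 CPM in the vehicle libraries of days 2, 4 and 8. The level in the TGFβ library of day 2 was above each of these limits, and the other 5 libraries together gave 2 reads. The authors' RPM table gives 150.95, 0.0 and 1.44 with TGFβ and 0.0 at every day with vehicle.

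**Figure D2:**
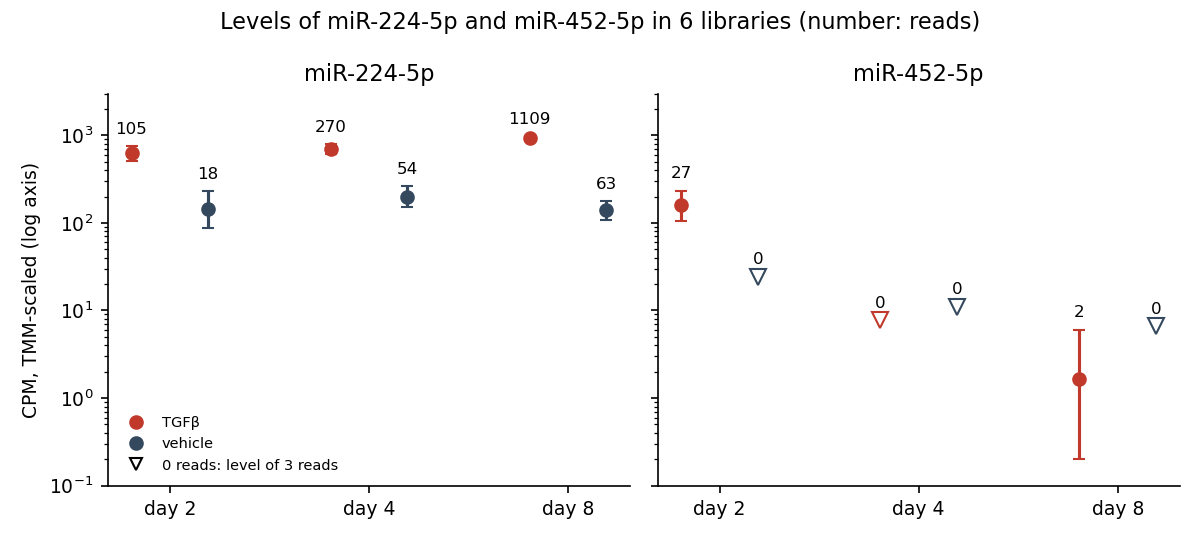
TMM-scaled CPM of miR-224-5p and miR-452-5p by day on a log axis, TGFβ left of vehicle, with points for single libraries, bars for exact 95% binomial intervals and open marks for the level of 3 reads where 0 were seen. miR-224-5p lies between 620 and 921 CPM with TGFβ and between 139 and 199.6 CPM with vehicle, and miR-452-5p is well above its limits in the TGFβ library of day 2 alone.

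The TGFβ library of day 2 stood apart in a further set of miRNAs. By a rule chosen after the values were seen, at least 10 reads and at least 8 times the mean CPM of the other 5 libraries, 8 of the 230 miRNAs with that many reads qualified in it: miR-10b-5p, miR-148a-3p, miR-200a-3p, miR-200b-3p, miR-200c-3p, miR-204-5p, miR-452-5p and miR-7b-5p. With the same rule 1 of 211 qualified in the vehicle library of day 2, 0 of 293 and 0 of 266 in the TGFβ and vehicle libraries of day 4, and 2 of 372 and 1 of 309 in those of day 8. miR-224-5p did not qualify in any library.

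Markers of other cell types were summed beside these values. The 7 epithelial markers (miR-200a-3p, miR-200b-3p, miR-200c-3p, miR-141-3p, miR-429-3p, miR-203-3p and miR-205-5p) came to 986, 15.6 and 21.6 CPM with TGFβ at days 2, 4 and 8, and to 211, 51.7 and 15.4 CPM with vehicle. In the TGFβ library of day 2, 6 of the 7 had a read, and miR-205-5p was at 0. miR-452-5p was thus high in the library in which the epithelial list was high, and the part of other cells or of RNA from another source in its reads was not tested. The 6 fibroblast markers had reads in every library and summed to 242203, 281907 and 302931 CPM with TGFβ and to 122250, 127046 and 109239 CPM with vehicle. That list holds miR-21a-5p, which TGFβ is known to raise, and which with miR-214-3p and miR-199a-5p was higher with TGFβ at each day. In the same list miR-143-3p was lower with TGFβ at each day, at 14225.7, 12677.5 and 15534.6 CPM against 15284.2, 21313.6 and 23514.6 CPM with vehicle. miR-199a-3p and miR-145a-5p were lower with TGFβ at day 2 and higher at days 4 and 8. Of the nerve list, miR-9-5p was at 502, 412 and 547 CPM with TGFβ at days 2, 4 and 8 and at 332, 318 and 361 CPM with vehicle, while miR-124-3p was at 0 in all 6 libraries. Of the muscle list, miR-206-3p was at 183, 117 and 129.5 CPM with TGFβ and at 81.0, 18.5 and 15.4 CPM with vehicle, miR-1a-3p reached at most 35.4 CPM and miR-133a-3p at most 1.66 CPM. miR-206-3p thus moved with treatment as miR-224-5p did, and its part in the values of the members was not tested. The blood markers miR-451a and miR-144-3p were at 0 in all 6 libraries, and the liver miRNA miR-122-5p reached at most 47.2 CPM, in the TGFβ library of day 2. The 2 leukocyte markers in the table had reads only in the TGFβ library of day 8, 1 each. Neither of the 2 endothelial names searched was in the table. A related name, miR-126-3p, was in it, with a log2 change with TGFβ of 2.62 at day 2 and -0.38 at day 8 (prior count 2). Its part in the values of the members was not tested.

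Set against vehicle within a day, miR-224-5p was 4.25 times the vehicle level with TGFβ at day 2 (interval 2.56 to 7.45), 3.51 times at day 4 (2.61 to 4.79) and 6.64 times at day 8 (5.15 to 8.71). The log2 ratios were 2.09, 1.81 and 2.73, beside medians of -0.039, 0.17 and 0.0058 over all miRNAs that averaged 10 CPM or more in the day. By the change fitted with a prior count of 2, it ranked 21 of 362, 27 of 366 and 8 of 361 from the highest. Scaled by library totals the log2 ratio at day 4 was 1.34, and that scaling put the median of all miRNAs at -0.31 there. Relative to the median, the fitted log2 change of miR-224-5p at day 4 was 1.61 with TMM and 1.63 with library totals. At days 2 and 8 library totals moved the median to -0.26 and -0.33.

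For miR-452-5p, 27 reads with TGFβ against 0 with vehicle at day 2 gave a ratio of 6.56 with the 0 set to 3 counts in that library. The exact lower limit of the ratio was 4.98. At day 4 both libraries had 0 reads, and at day 8 the reads were 2 with TGFβ and 0 with vehicle, so no fold was computed for either day.

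Both members were thus at least 2-fold higher with TGFβ at day 2, when 11.9% of 362 miRNAs were, while miR-224-5p was the only member with a measurable ratio at days 4 and 8, when 21.6% of 366 and 20.2% of 361 miRNAs were at least 2-fold higher. Since the choice of members used this contrast, nothing is read from these counts. With TGFβ, 43 miRNAs were at least 2-fold higher and 51 (14.1%) at least 2-fold lower at day 2, against 79 and 65 (17.8%) at day 4, and 73 and 78 (21.6%) at day 8. In either direction this makes 26.0%, 39.3% and 41.8%. Scaled by library totals the numbers higher and lower were 33 and 82, 50 and 96, and 54 and 101.

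**Figure D3:**
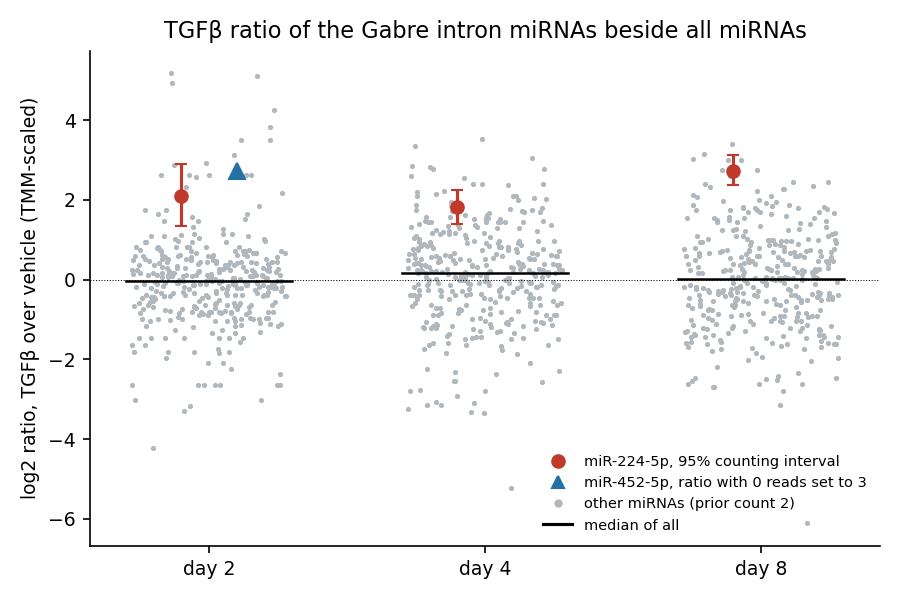
Log2 ratio of TGFβ over vehicle at each day, with miR-224-5p as circles with 95% counting intervals, miR-452-5p at day 2 as a triangle at the ratio with 0 reads set to 3, other miRNAs as grey points fitted with a prior count of 2, and the median as a black line. miR-224-5p lies at 2.09, 1.81 and 2.73, in the upper part of the miRNAs at each day, and miR-452-5p has a mark at day 2 alone.

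A fit over all 6 libraries with day and treatment as terms (edgeR's quasi-likelihood test, 309 miRNAs past the filter on low counts) gave miR-224-5p an averaged log2 change with TGFβ of 2.22 ± 0.40 (SE). In that contrast 1.29% of the 309 miRNAs were called higher and 1.94% were called in either direction at an adjusted p under 0.05. miR-452-5p did not pass the filter, because its reads lay almost wholly in 1 library, and has no averaged value.

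The choice of members did not use a contrast between days, but it was made with earlier results of these libraries known. Over both treatments, miR-224-5p differed between days by less than the spread of the fit. Its log2 change for day 8 against day 2 was 0.29 ± 0.48 (SE; edgeR adjusted p = 0.694), in a contrast where 6.8% of the 309 miRNAs were called. For day 4 against day 2 it was 0.32 ± 0.49 (SE; edgeR adjusted p = 0.821). edgeR called 0 of 309 miRNAs in that contrast, which is 0.0%, while 27 had an unadjusted p under 0.05 and DESeq2 called 2. Without the TGFβ library of day 8 the day 8 value was -0.12, and without the vehicle library of day 4 the day 4 value was -0.024. miR-452-5p was not tested, as it did not pass the filter. With no filter it had an adjusted p of 0.000238 for day 8 against day 2 and 0.00268 for day 4 against day 2 (edgeR, 664 miRNAs). Both values rest on the TGFβ library of day 2, without which it had 2 reads in all, and nothing is read from them.

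Within the TGFβ libraries miR-452-5p was far lower at days 4 and 8 than at day 2, while miR-224-5p was at or above its day 2 level. miR-224-5p stood at 1.13 times its day 2 level at day 4 (interval 0.898 to 1.43) and at 1.49 times at day 8 (1.22 to 1.83). miR-452-5p was 20.5-fold lower at day 4 than at day 2 with 0 reads set to 3, and at least 15.5-fold lower by the exact limit of the ratio. At day 8 it was 96.0-fold lower than at day 2 (24.1 to 833). In vehicle libraries miR-224-5p was 1.37 times its day 2 level at day 4 (0.790 to 2.48) and 0.951 times at day 8 (0.556 to 1.71), and miR-452-5p was not seen.

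The reads of the partners within a library can be compared without any scaling. miR-452-5p made up 20.5% of the reads of the pair with TGFβ at day 2, 27 of 132 (exact binomial interval 13.9 to 28.3%). With TGFβ at day 4 it was 0 of 270, with an exact upper limit of 1.36%. At day 8 it was 2 of 1111, or 0.180% (0.0218 to 0.649%). With vehicle the shares were 0 of 18, 0 of 54 and 0 of 63, with exact upper limits of 18.5%, 6.60% and 5.69%. The share with TGFβ at day 2 was thus above every other library's value or limit, by little in the case of the shallow vehicle library of day 2. Its own interval spanned the limit of that vehicle library.

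Had the partners kept the ratio of the TGFβ library of day 2, the reads of miR-224-5p would correspond to 69.4 reads of miR-452-5p at day 4 and 285 at day 8 with TGFβ, where 0 and 2 were counted. For the vehicle libraries the same ratio corresponds to 4.63, 13.9 and 16.2 reads at days 2, 4 and 8, where 0 were counted. The TGFβ libraries of days 4 and 8 were deeper than that of day 2, so their depth does not limit this comparison, whereas the vehicle library of day 2 was shallow. As an odds ratio, miR-452-5p relative to miR-224-5p was 141-fold lower at day 8 than at day 2 with TGFβ (34.7 to 1243), and at day 4 it was at least 17.0-fold lower by its exact limit. For TGFβ against vehicle the odds ratio had a lower limit of 1.04 at day 2 and 0.0106 at day 8, with no upper limit, and at day 4 there was none to compute. These are comparisons of single libraries, and day cannot be told apart from library in them.

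The miRNAs whose pattern over the 6 libraries was most like that of each member were ranked by the root mean square difference of log2 CPM, each miRNA centred on its own mean. The ranking took in 372 other miRNAs that averaged 10 CPM or more. For miR-224-5p the nearest were miR-677-3p at 0.352, miR-324-5p at 0.425, miR-182-5p at 0.436, miR-21a-5p at 0.471 and miR-183-5p at 0.497, beside a median of 1.27 over all 372. miR-452-5p, its neighbour in the intron, was at place 318, with 1.78. It met the minimum level only through the TGFβ library of day 2, so a pattern unlike that of miR-224-5p was fixed by the choice. Its place is no result.

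The miRNAs like miR-224-5p shared its split by treatment at unequal levels. miR-21a-5p, the most abundant of them, had 156589, 124410 and 119204 CPM with TGFβ at days 2, 4 and 8, and 50153.7, 28971.3 and 30126.9 CPM with vehicle. miR-182-5p had 3577, 5780 and 9990 CPM with TGFβ, and 2341, 1763 and 1223 CPM with vehicle. miR-677-3p was far scarcer, with 4, 15 and 68 reads with TGFβ and 1, 1 and 2 reads with vehicle, so its place is loosely set. All 5 were higher with TGFβ than with vehicle at each day. They were picked for likeness to miR-224-5p in these same 6 libraries, so this shared split is no separate result. miR-182-5p and miR-183-5p are themselves neighbours on another chromosome.

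For miR-452-5p the nearest miRNAs were those that peaked in the TGFβ library of day 2. miR-204-5p, at 0.170, had 23 reads in it and 0 in each of the other 5 libraries. miR-200a-3p, at 0.344, had 26 reads in it, 0 and 1 with TGFβ at days 4 and 8, and 0, 1 and 0 with vehicle at days 2, 4 and 8. miR-10b-5p at 0.640, miR-200b-3p at 0.660 and miR-148a-3p at 0.781 followed, with 49, 77 and 76 reads in that library. miR-224-5p was at place 79 for miR-452-5p, and the median was 2.02. That place was 49 with library totals and 40 with a prior count of 0.5. miR-200a-3p and miR-200b-3p are themselves in the epithelial list, and the likeness rests on 1 library. miR-452-5p entered the ranking through that library alone, so neither this order nor the place of miR-224-5p in it is a result.

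**Figure D4:**
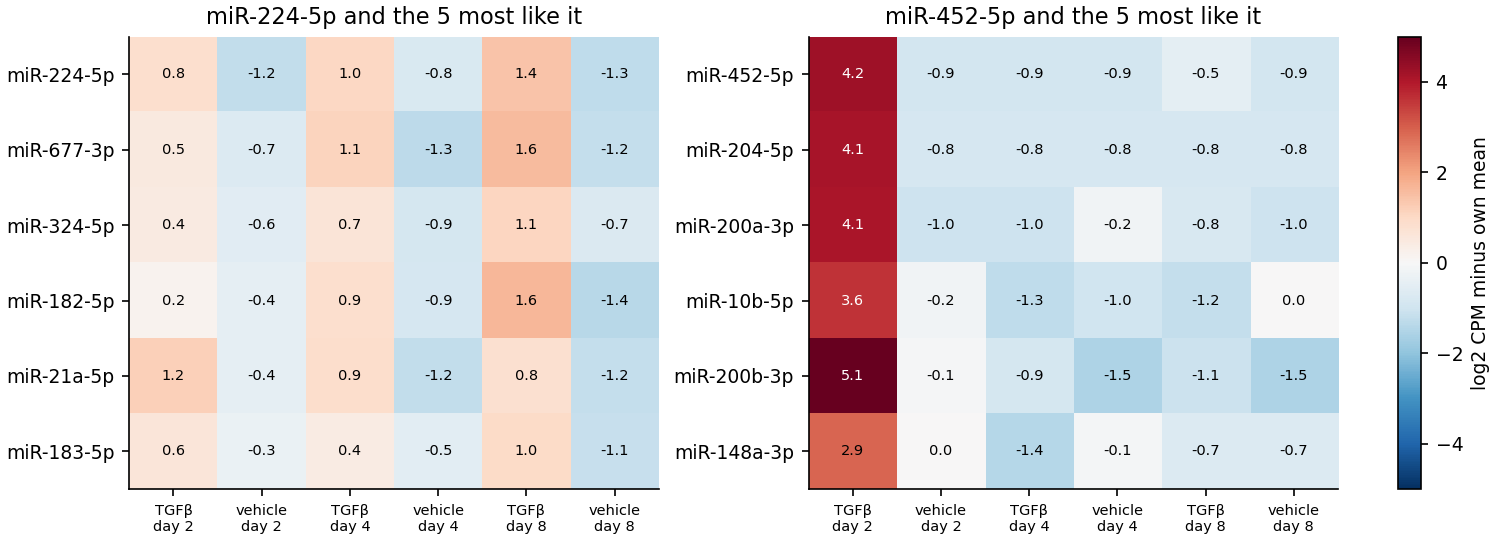
Heat maps of log2 CPM minus each miRNA's own mean for miR-224-5p (left) and miR-452-5p (right) with the 5 miRNAs most like each, libraries in columns with TGFβ left of vehicle at each day. The left rows are above their mean in the 3 TGFβ libraries and below it in the 3 vehicle libraries, and the right rows are far above their mean in the TGFβ library of day 2.

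The gap between the partners was set beside that of other neighbouring miRNAs, taken as mature miRNAs of different hairpins within 10000 bases on the same strand, each averaging 10 CPM or more over the 2 libraries compared. Pairs in a cluster share members and are not independent. For TGFβ against vehicle, the size of the difference in log2 ratio had a median of 0.80 over 82 other pairs at day 2, 0.62 over 88 at day 4 and 0.51 over 89 at day 8. At day 2 miR-224-5p and miR-452-5p differed by 0.63 with 0 reads set to 3, miR-452-5p having the larger ratio. This is not the smallest gap the counts allow, since the odds ratio of the partners had a lower limit of 1.04. With a prior count of 2, the setting used for the other pairs, the fitted difference was 3.10, and 4 other pairs had a larger one. miR-452-5p met the minimum level at day 2 only through its 27 reads in the TGFβ library, so the place of the pair among the others is no result. At days 4 and 8 miR-452-5p was too scarce for the pair to enter.

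The other pairs ran from near equality to wide gaps. At day 2 the smallest difference was 0.034, between miR-193b-5p and miR-365-1-5p, and the largest was 4.11, between miR-450b-3p and miR-322-5p. At day 4 they were 0.016 for miR-25-5p and miR-106b-5p and 2.42 for miR-30c-1-3p and miR-30e-5p. At day 8 the closest pair was miR-17-5p and miR-20a-5p and the widest was miR-23a-3p and miR-27a-5p, at 2.10. Differences within 1 log2 unit were found in 51, 61 and 66 of the pairs at days 2, 4 and 8.

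The comparison over time within TGFβ was added after the values were seen. For day 4 over day 2, the median difference of 83 other pairs was 0.76 and the largest was 2.68, between miR-200a-5p and miR-200b-3p. The difference of miR-224-5p and miR-452-5p was 4.53 there with 0 reads set to 3. For day 8 over day 2 its fitted value was 5.28, beside a median of 0.97 and a largest value of 4.18 over 86 other pairs. The largest of these others was between miR-29a-3p and miR-29b-1-5p. miR-452-5p met the minimum level only through its 27 reads in the TGFβ library of day 2, the library that prompted this comparison, so a wide gap was fixed by the choice and the place of the pair among the others is no result.

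**Figure D5:**
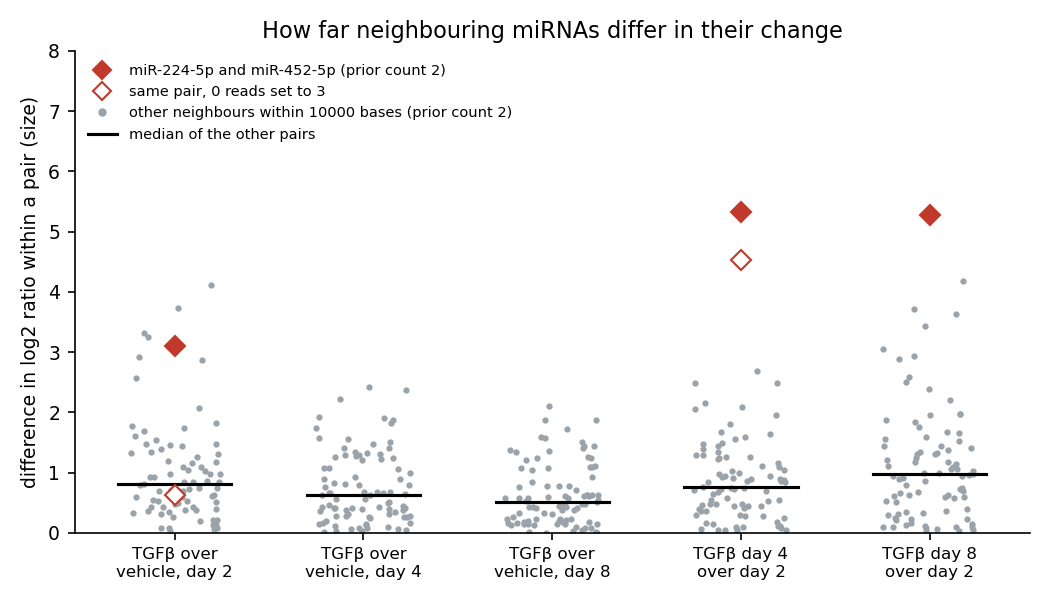
Size of the difference in log2 ratio between neighbouring miRNAs for TGFβ over vehicle at each day and for later over earlier days within TGFβ, with other pairs as grey points, their median as a black line, and miR-224-5p with miR-452-5p as filled diamonds (prior count 2) and open diamonds (0 reads set to 3). The diamonds lie at 3.10 (filled) and 0.63 (open) for TGFβ over vehicle at day 2, and at 5.33 and 5.28 (filled) in the comparisons over time. miR-452-5p enters each of these through the TGFβ library of day 2 alone.

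The mRNA data bear on the host gene and on possible targets, as 3 tables deposited by the authors, 1 for each day, with a ratio for each of 998 genes. Genes above 1 number 499 in each of them, which is 50%, and the same number lies below. The ratios were read as TGFβ over vehicle, the reading in which known direct TGFβ targets mostly lie above 1; the headers give no direction, and with the opposite reading every mRNA direction here would invert. Gabre was listed at no day, nor were the 10 protein-coding genes nearest to it, which include the receptor subunit genes Gabra3 and Gabrq. Genes outside the tables are not shown to be unchanged, so the host transcript could not be set beside its miRNAs.

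Of 20981 genes with an annotated 3′ UTR, 8.44% were listed at 1 or more days, which is the background for the counts that follow. Of 20 Smad and receptor genes, 3 were listed. In the authors' deposited table Bmpr1b, a type I BMP receptor, stood at 20.3, 39.7 and 109 at days 2, 4 and 8. In smallest odd whole numbers these ratios are 61 to 3, 119 to 3 and 109 to 1. On that reading the lower count was near its floor at each day, so the rise over days is loosely set. Smad9, a Smad of the BMP branch, was 10.8-fold, 7.28-fold and 10.6-fold lower in that deposited table, and Acvrl1, a type I receptor of endothelial cells, was 21-fold lower at day 2 alone, a ratio that 10 reads against 0 would give if 0.5 were added to each count. Smad4 was not listed.

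Of 8 reported targets of miR-224, 1 was listed, and of 4 reported targets of miR-452, 1 was listed. With lists this short, such counts say nothing against that background. Ptx3, a secreted pattern-recognition protein that is also laid down in the matrix around the ovulated egg, was, in the authors' deposited table for day 2, lower with TGFβ by 7.36-fold, and it was listed at no other day. Sox7, a transcription factor of endothelium, was, in the authors' deposited table for day 8, lower with TGFβ by 9-fold, a ratio that 4 reads against 0 would give in the same way. These ratios come from 1 library per group and were not adjusted for library depth.

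The 7-base match to each seed was searched on the sense strand of the 3′ UTRs of 20981 genes (GENCODE M21, GRCm38). The match to miR-224-5p, GTGACTT, was in 12.7% of them, and that to miR-452-5p, TGCAAAC, in 9.68%. At least 1 match to miR-224-5p was present in 6 of its 8 reported targets, Smad4, Ptx3, Cdc42, Trib1, Hoxd10 and Api5. A match to the mouse seed of miR-452-5p was in 0 of its 4. The species and mature form of each report were not compared with these seeds, so the counts are not set against each other. The Ptx3 UTR, 600 bases long on chromosome 3, holds 2 matches. The first is shown, because Ptx3 is the listed target, with the match in capitals.
Ptx3: cagagggacgattgtGTGACTTtt
A match is a description of letters and says nothing of use by the miRNA.

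Among listed genes with a 3′ UTR, the match to miR-224-5p was in 70 of 448 genes below 1 at day 2 (15.6%) and in 40 of 405 above 1 (9.88%). At day 4 the shares were 12.0% below 1 and 15.0% above 1, and at day 8 they were 12.6% and 12.3%. The order at day 2 was thus turned round at day 4 and nearly absent at day 8, and the differences were not tested. The median UTR was 912.5 bases below 1 and 812 bases above 1 at day 2, 844.5 and 1109 bases at day 4, and 921 and 1024 bases at day 8. The longer UTRs lay on the side with more matches at days 2 and 4, and on the side with fewer at day 8. The part of UTR length in these shares was not tested. The match to miR-452-5p was in 9.82% of genes below 1 and 6.67% above 1 at day 2, in 9.81% and 10.1% at day 4, and in 10.8% and 10.3% at day 8.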

How the data were processed

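miRNA was sequenced in 6 libraries of AKR-2B colonies, 1 for each of 6 groups of treatment and day given by the labels, and mRNA in 6 more. The deposited counts are unnormalized numbers of reads for each mature miRNA. The RPM table deposited by the authors scales reads to each library total and is listed per mature miRNA and precursor, without either 3p arm. The 3 mRNA tables deposited by the authors give a ratio (fold) per gene. Per the submitters' processing notes, edgeR 3.9 and mm10 were used, with no role stated; which aligner and counter made the counts is not given in the sources used here. In the labels' protocols the library kit is an mRNA kit, and a small RNA kit is not given there. There were 0 columns of no sample.

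Counts were scaled with TMM in edgeR 4.0.16 (R 4.3.3). Ratios within a pair of libraries have exact conditional binomial intervals at 95%, and 0 reads were set to 3 where a level or ratio is given for them. Day contrasts came from glmQLFit and glmQLFTest over all 6 libraries (day plus treatment, 2 residual degrees of freedom, biological coefficient of variation 33.4%), with Benjamini-Hochberg adjustment over the 309 miRNAs that passed filterByExpr. Nothing in the labels says that libraries came from separate cultures. With day and treatment as terms, the residual spread is how the difference between TGFβ and vehicle varied over days. A TGFβ effect that changes with day counts as spread in it, so p-values measure only the spread among these libraries. The test was tested on simulated data: for day 8 against day 2 with 60 of 309 miRNAs changed, 1.5%, 67.9% and 95.6% were recovered for changes of 2-fold, 4-fold and 8-fold, and a run made 0.1, 1.7 and 1.3 false calls (10 runs per size). The simulation used the common spread of the fit and no treatment effect, and apart from the change each miRNA kept its mean share in every library. The real libraries differ by treatment, so these rates need not hold for them. DESeq2 1.42.0 was an alternative.

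Of the names in the count table, 1029 matched RefSeq mature miRNAs. Named miRNAs are both arms of each member, the 5 most like each 5p arm, those sharing a seed, and the closest and widest neighbouring pairs at each day; named mRNAs are Gabre and up to 4 listed genes per list by size of ratio. A result on an item withheld for evaluation is not reported here. The members, gene lists and tests were chosen with earlier results of these data known. Alternatives covered scaling, filters, the prior count, DESeq2, the RPM table and leaving out libraries or days.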

Additional observations from a re-analysis of the deposited data

How the results depend on the processing

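No paired analysis was possible because the labels give no replicate numbers and each group has 1 library; TGFβ and vehicle share only the day, which is already a term of the averaged fit. Every value that sets TGFβ against vehicle for miR-224-5p stayed positive under each alternative run. At day 4 its log2 change was 1.34 with library totals and 1.34 with the RPM table (added after seeing the data), against 1.81 with TMM. The averaged log2 change of 2.22 ran from 1.81, without day 8, to 2.45, without the vehicle library of day 4. Reversals were -0.12 for day 8 against day 2 without the TGFβ library of day 8, and -0.024 for day 4 against day 2 without the vehicle library of day 4; the highest values were 0.61 and 0.66, and no value of either contrast passed the test's threshold. With no filter, 212 miRNAs were at least 2-fold different at day 2, against 94. The place of miR-224-5p in the likeness order of miR-452-5p was 49 with library totals and 40 with a prior count of 0.5, against 79. Calls averaged over days were 61 with library totals (15 higher, 46 lower), 58 with DESeq2 size factors, 46 with no filter and 40 with DESeq2, against 6 (4 higher, 2 lower), and 2 (without day 4) to 123 (without the vehicle library of day 2) when libraries or days were left out. For day 8 against day 2 they were 55, 58, 62 and 52 in the same order, against 21, and 1 (without the TGFβ library of day 8) to 105 (without the vehicle library of day 2). For day 4 against day 2 they were 2 with DESeq2 size factors, 13 with no filter and 2 with DESeq2, against 0, and 0 to 46 (without the vehicle library of day 2). The cause was not tested. With a larger fraction term of at least 41, which corresponds to at least 20 reads, Sox7 left the list of reported miR-452 targets and Acvrl1 left the Smad and receptor list, which held 2 genes against 3. Not run were a minimum of 50 CPM for the likeness order, which miR-452-5p does not reach, and the RPM table for the odds ratio, which needs counts. For miR-452-5p the averaged and day contrasts have no main value, and its within-day values at days 4 and 8 are too few reads for a fold under any setting. Depth limits the vehicle libraries most: at day 2 the vehicle library held 18 reads of miR-224-5p, for which the ratio of the partners with TGFβ corresponds to 4.63 reads of miR-452-5p, and 0 were counted.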
